A study of Mus musculus with 6 samples.

Results

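The sterol synthesis and uptake genes are 26 genes listed by their known role. They are 19 enzymes that build cholesterol from acetyl-CoA, 4 genes that control the pathway and 3 genes of sterol transport and uptake. Each of the 26 was listed once in every mouse, among 47232 gene names used, and all 26 were among the 18619 genes with enough signal to be tested. The values come from RNA-Seq of whole liver in 6 house mice, 3 laboratory mice and 3 wild mice, with each mouse measured once. The laboratory mice were inbred C57BL/6 adult males, bought from a supplier and killed on arrival. The wild mice were outbred adults, trapped alive at 2 sites and then kept for months under standard husbandry with natural light before they were killed. Wild mouse 1 was male, and wild mice 2 and 3 were female. Wild mice 1 and 2 came from the same site and wild mouse 3 from the other. The livers were frozen and not fixed, and no group carried a genetic change made by the study. Strain, origin, housing, age, date of collection, the time of day and the last meal cannot be told apart in this comparison. Sex can be told apart only in part.

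To make cholesterol, acetyl-CoA units are joined into mevalonate, mevalonate into isoprenoids, and isoprenoids into squalene. Squalene is closed into lanosterol, which is trimmed to cholesterol. When sterols in the membrane of the endoplasmic reticulum fall, the carrier protein SCAP takes the factor SREBP-2 to the Golgi. There SREBP-2 is cut and released to switch on these genes, and INSIG proteins hold the pair back when sterols are plentiful. Liver is a main site of this synthesis and of the uptake of cholesterol from plasma.

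Levels are given as FPKM, mapped fragments scaled to the length of the transcript and the size of the library, so that levels of different genes can be compared. Groups were compared on zFPKM, a log2 FPKM from which the mode of the mouse is subtracted and which is then divided by an SD fitted for that mouse, and a gene was called when its Benjamini-Hochberg adjusted p from limma over all 18619 tested genes was under 0.05. All differences are wild minus laboratory. The mode lay at a log2 FPKM of 0.491 to 2.12 in laboratory livers and 1.31 to 2.51 in wild livers, so that a gene with equal zFPKM may differ in FPKM. Over all tested genes, the median difference was -0.005 in zFPKM but 0.47 in log2(FPKM + 0.1), and every FPKM ratio given here includes that general shift. A second scale therefore set the median log2(FPKM + 0.1) of the tested genes to 0 in each mouse, and is called the centred log2 scale.

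Of the 26 sterol genes, 11 were higher in wild livers, against 7.28% of all tested genes, and none was lower, against 7.17% of all tested genes. The 26 genes were chosen with earlier results of these data known, so the count is a description. All tested genes include many of low FPKM, to which the limma fit gave wider errors, and no share matched for level was computed. At an unadjusted p under 0.05 in the same limma fit, 16 of the 26 differed, all 16 of them higher in wild livers, beside 25.7% of all tested genes that differed in either direction. The 11 were Dhcr7, Lss, Hsd17b7, Cyp51, Pmvk, Idi1, Srebf2, Msmo1, Tm7sf2, Insig2 and Insig1, in order of the size of the zFPKM difference. The median difference of the 26 genes was 0.412 zFPKM. On the centred log2 scale the median was 1.16, beside -0.27 for all tested genes, and 17 of the 26 were called higher, against 18.6% of all tested genes. In FPKM, 21 of the 26 were higher in every wild mouse than in every laboratory mouse, as were 43.7% of all tested genes, and the exact permutation p of 0.1 for each of them is the smallest that 3 mice against 3 can give. Without overlap in zFPKM were 16 of the 26, against 14.1% of all tested genes.

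**Figure D1:**
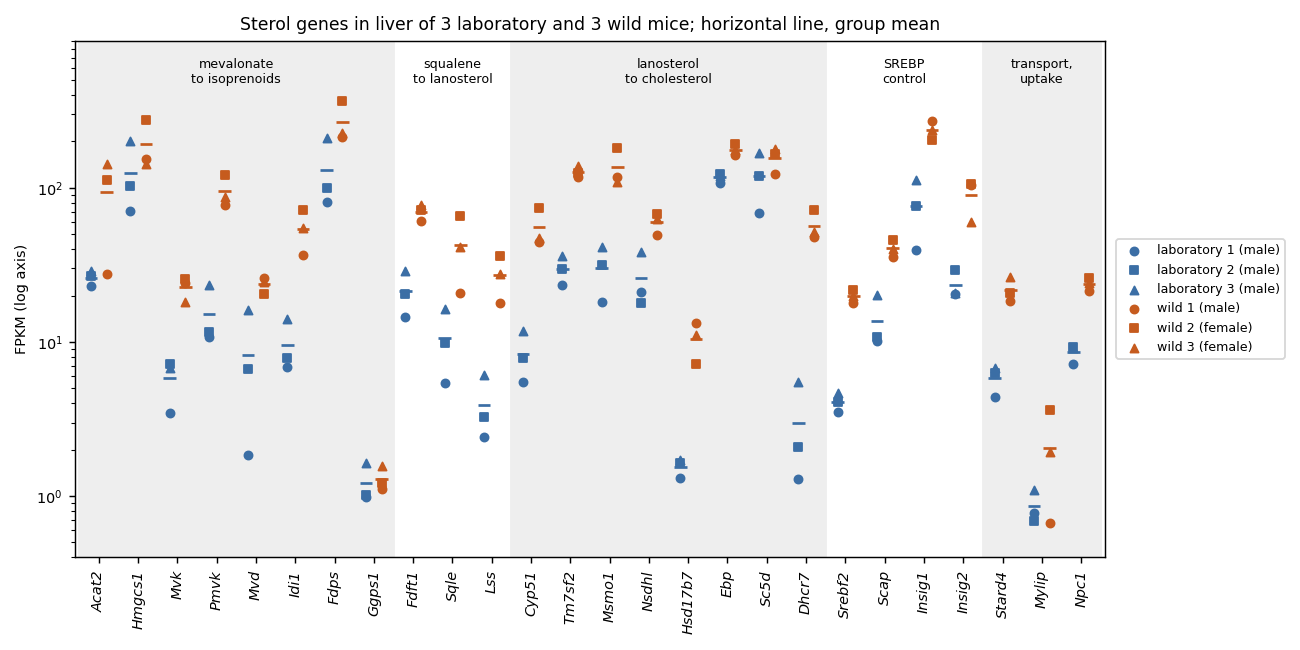
FPKM of the 26 sterol genes on a log axis, grouped by step of the pathway, with a symbol per mouse and a horizontal line for the mean of each group of 3 mice. For 21 of the genes all wild mice lie above all laboratory mice, while Acat2, Hmgcs1, Ggps1, Sc5d and Mylip overlap.

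The number of calls depended on how the spread was estimated. The limma fit took the variance of each gene from a curve over all genes, and when this trend was left out, 1 of the 26 was called, Dhcr7, against 1.89% of all tested genes. The count was 3 without wild mouse 2 (Pmvk, Cyp51 and Dhcr7) and 4 without wild mouse 3 (Pmvk, Cyp51, Msmo1 and Dhcr7), where 3.42% and 3.03% of all tested genes were called higher. It was between 8 and 12 when any other mouse was left out, where 4.90% to 7.09% of all tested genes were called higher. Levels of bulk tissue are also limited in that fewer cells expressing a gene and less RNA per cell cannot be told apart.

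Among the 8 enzymes from acetyl-CoA to the isoprenoids, 2 were higher in wild livers, Pmvk and Idi1, and 6 did not pass the test. Pmvk encodes phosphomevalonate kinase, which adds the second phosphate to mevalonate. Its FPKM was 10.7, 11.7 and 23.5 in laboratory mice 1 to 3 and 77.9, 122 and 87.2 in wild mice 1 to 3. The lowest wild mouse thus stood well above the highest laboratory mouse, and the difference was 0.669 ± 0.143 zFPKM (SE, n = 3 and 3), with an adjusted p of 8.10e-05 by limma. Idi1 encodes the isomerase that interconverts the isoprenoid building blocks. Its FPKM was 6.90, 7.81 and 14.1 in laboratory livers and 36.6, 71.7 and 54.5 in wild livers, a 5.64-fold difference of the means. The groups did not overlap, and the difference was 0.603 ± 0.157 zFPKM (adjusted p = 0.00203, limma).

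Mvk and Mvd, the kinase before Pmvk and the decarboxylase after it, did not pass the test although their groups were apart. Mvk had an FPKM of 3.44, 7.20 and 6.78 in laboratory livers and 24.3, 25.5 and 18.1 in wild livers (adjusted p = 0.0763 by limma on zFPKM, 0.00797 on the centred log2 scale). Mvd was at 1.84, 6.68 and 16.1 FPKM in laboratory livers and lay at 26.01, 20.6 and 24.5 in wild livers (adjusted p = 0.0946 by limma, 0.0986 centred). The decarboxylase was thus close together in wild livers and spread out in laboratory livers.

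Hmgcs1, the cytosolic HMG-CoA synthase, and Fdps, the farnesyl diphosphate synthase, were the most abundant enzymes of this stretch. Hmgcs1 stood at 71.2, 103 and 201 FPKM in laboratory livers and 154, 277 and 143 in wild livers, and the groups overlapped. Its difference was -0.0469 ± 0.116 zFPKM (adjusted p = 0.854, limma) and -0.06 on the centred log2 scale, but 0.68 in log2(FPKM + 0.1) without centring. Fdps was at 81.1, 99.7 and 212 FPKM in laboratory livers and 214, 365 and 228 in wild livers, with a difference of 0.106 ± 0.113 zFPKM (adjusted p = 0.616, limma). Laboratory mouse 3 stood above 2 of the wild mice for Hmgcs1 and just under the lowest of them for Fdps. Acat2, the cytosolic thiolase that joins the first acetyl-CoA units, was at 23.1, 26.7 and 28.7 FPKM in laboratory livers, 27.7 in wild mouse 1 and 112 and 143 in the wild females (adjusted p = 0.208, limma). The wild male lay within the range of the laboratory males, and the females lay above it. Ggps1, which makes geranylgeranyl diphosphate for a side branch, was the lowest of the 19 enzymes in every mouse, at 0.987 to 1.65 FPKM in laboratory and 1.11 to 1.57 in wild livers (adjusted p = 0.745, limma).

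Of the 3 enzymes from squalene to lanosterol, 1 passed the test. Lss encodes lanosterol synthase, which folds the squalene chain into the first ring sterol. Its FPKM was 2.40, 3.26 and 6.08 in laboratory livers and 17.8, 36.2 and 27.6 in wild livers, a 6.95-fold difference of the means. Its groups did not overlap, and it differed by 0.719 ± 0.185 zFPKM (adjusted p = 0.00177, limma). Fdft1, squalene synthase, was at 14.4, 20.5 and 29.0 FPKM in laboratory and 61.1, 71.3 and 77.0 in wild livers (adjusted p = 0.0833, limma). Sqle, squalene epoxidase, was at 5.44, 9.86 and 16.3 in laboratory and 20.7, 65.4 and 41.1 in wild livers (adjusted p = 0.0662, limma). All 3 enzymes were called on the centred log2 scale.

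The 8 enzymes from lanosterol to cholesterol held 5 of the 11 calls. Dhcr7, on chromosome 7, encodes 7-dehydrocholesterol reductase, which reduces a ring double bond in the final step of one route to cholesterol. Its FPKM was 1.30, 2.08 and 5.49 in laboratory livers and 47.8, 71.3 and 51.3 in wild livers. Every wild mouse stood far above every laboratory mouse, the means differed 19.2-fold, and the difference was 1.29 ± 0.178 zFPKM (adjusted p = 5.09e-11, limma). Among the 18619 tested genes ordered by FPKM, Dhcr7 was at position 8051, 7177 and 4573 in laboratory livers and at 1414, 1056 and 1351 in wild livers.

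Cyp51, the lanosterol demethylase, had an FPKM of 5.53, 7.92 and 11.7 in laboratory livers and 44.6, 74.5 and 47.3 in wild livers, with a difference of 0.689 ± 0.159 zFPKM (adjusted p = 3.26e-04, limma). Hsd17b7, a sterol 3-keto reductase of the same stretch, was low in laboratory livers, at 1.30, 1.63 and 1.71 FPKM, and was at 13.2, 7.17 and 11.2 in wild livers. Close together in FPKM, the laboratory mice were apart in zFPKM, at -0.0348, -0.0302 and -0.536. The difference of Hsd17b7 was 0.712 ± 0.229 zFPKM (adjusted p = 0.0183, limma). Its highest FPKM was in the wild male, whose zFPKM of 0.450 was the lowest of the wild mice, beside 0.491 and 0.593. Msmo1, the sterol C4 methyl oxidase, was at 18.2, 31.7 and 41.3 FPKM in laboratory and 117, 182 and 110 in wild livers (adjusted p = 0.00247, limma). Tm7sf2, a sterol C14 reductase, was at 23.6, 29.8 and 36.2 in laboratory and 118, 125 and 138 in wild livers (adjusted p = 0.00449, limma). The lowest wild mouse exceeded the highest laboratory mouse in each of these 4 genes.

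The other 3 enzymes of the stretch, Ebp, Sc5d and Nsdhl, did not pass on either scale. Ebp, the sterol isomerase, was at 108, 123 and 119 FPKM in laboratory and 163, 192 and 175 in wild livers. Although no wild mouse was as low as a laboratory mouse, the difference was -0.0531 ± 0.116 zFPKM (adjusted p = 0.833, limma) and -0.15 on the centred log2 scale, and it was positive, at 0.59, in log2(FPKM + 0.1) without centring. Sc5d, the sterol C5 desaturase that acts just before Dhcr7, overlapped at 69.1, 119 and 169 FPKM in laboratory and 123, 166 and 179 in wild livers (-0.114 ± 0.117 zFPKM, adjusted p = 0.603, limma, and 0.47 in log2(FPKM + 0.1) without centring). Nsdhl, a sterol dehydrogenase, was at 21.2, 18.0 and 38.5 in laboratory and 49.8, 67.6 and 63.0 in wild livers (adjusted p = 0.482, limma).

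**Figure D2:**
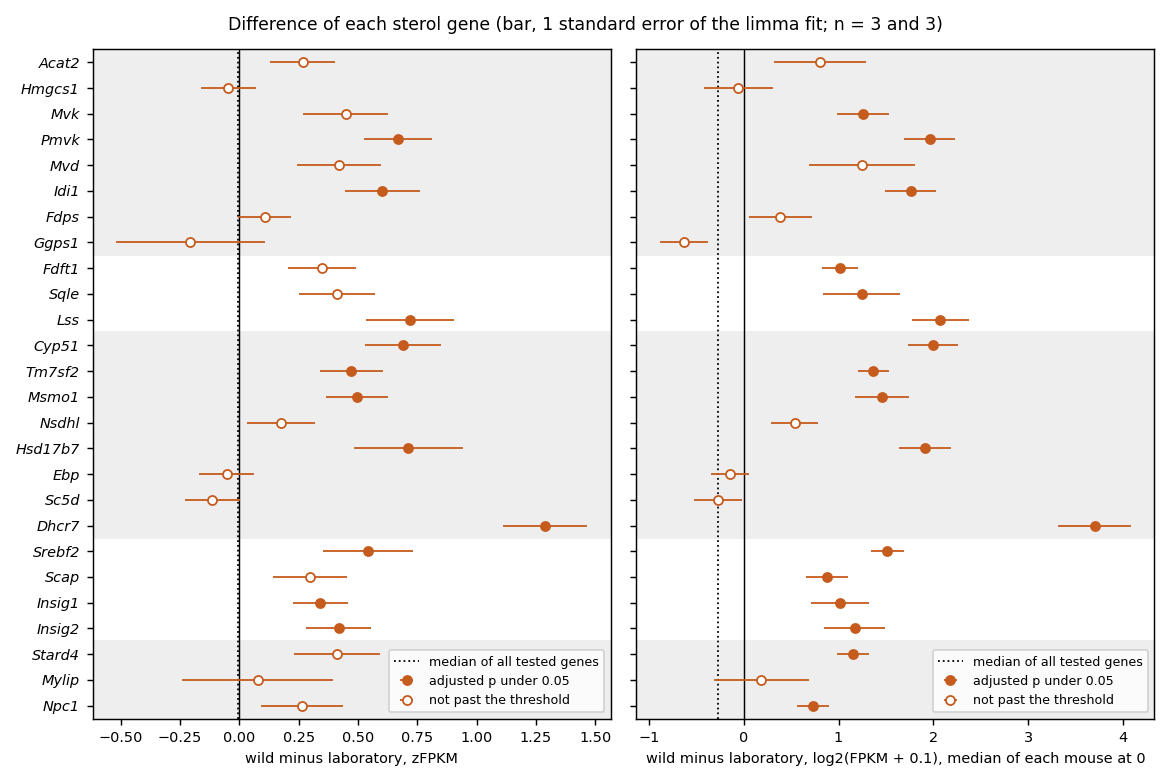
Wild minus laboratory difference of each sterol gene in zFPKM (left) and on the centred log2 scale (right), with bars of 1 SE from limma, n = 3 and 3 mice, filled points for adjusted p under 0.05 and a dotted line at the median of all tested genes. Dhcr7 lies farthest to the right on both scales, at 1.29 and 3.70, while Hmgcs1, Ggps1, Ebp and Sc5d lie left of 0 on both.

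Of the 4 control genes, 3 were higher in wild livers, and the exception was Scap. Srebf2 encodes SREBP-2, the factor that switches the pathway on. Its FPKM was 3.51, 4.07 and 4.66 in laboratory livers and 17.8, 21.9 and 19.8 in wild livers. The means differed 4.86-fold, with little spread of FPKM in either group. In zFPKM the SD was 0.215 in laboratory and 0.201 in wild livers, and the difference was 0.543 ± 0.189 (adjusted p = 0.0326, limma). Insig1 and Insig2, which hold SREBP-2 and SCAP in the endoplasmic reticulum, were higher in wild livers as well. Insig1 was at 39.5, 75.8 and 113 FPKM in laboratory and 272, 203 and 238 in wild livers (0.342 ± 0.118 zFPKM, adjusted p = 0.0302, limma). Insig2 was at 20.4, 29.4 and 20.8 in laboratory and 105, 106 and 60.3 in wild livers (0.418 ± 0.138 zFPKM, adjusted p = 0.0224, limma). Neither pair of groups overlapped. The calls of Srebf2, Insig1 and Insig2 were each lost when any one of 5 of the 6 mice was left out, the exceptions being wild mouse 1 for Srebf2, laboratory mouse 3 for Insig1 and laboratory mouse 2 for Insig2. Scap was at 10.1, 10.8 and 20.3 FPKM in laboratory and 35.4, 45.7 and 40.4 in wild livers, with an adjusted p of 0.206 by limma on zFPKM and 0.0142 on the centred log2 scale.

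None of the 3 transport and uptake genes passed the limma test on zFPKM, 1 of them, Stard4, had an unadjusted p under 0.05, and 2 passed on the centred log2 scale. Stard4, a carrier of cholesterol between membranes, was at 4.41, 6.25 and 6.78 FPKM in laboratory and 18.3, 20.7 and 26.4 in wild livers (adjusted p = 0.113, limma, and 0.00161 centred). Npc1, which exports cholesterol from lysosomes, was at 7.21, 9.27 and 9.20 in laboratory and 21.4, 26.1 and 24.1 in wild livers (adjusted p = 0.345, limma, and 0.0098 centred). For both genes the wild mice formed a tight group above the laboratory mice in FPKM. Mylip, a ubiquitin ligase that removes lipoprotein receptors from the cell surface, was low throughout, at 0.777, 0.693 and 1.10 FPKM in laboratory livers, 0.667 in wild mouse 1 and 3.60 and 1.92 in the wild females (adjusted p = 0.916, limma).

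The 4 sterol genes with the highest mean in laboratory livers, Fdps, Hmgcs1, Sc5d and Ebp, were all among those that did not pass, and the enzymes lay closer together in wild livers. The SD of log2 FPKM over the 19 enzymes was 2.17, 2.10 and 2.07 in laboratory livers and 1.75, 1.94 and 1.73 in wild livers. Over all tested genes the SD, there of log2(FPKM + 0.1), went the other way, at 2.83 to 2.87 in laboratory and 3.08 to 3.19 in wild livers. The exact permutation p was 0.1 for each of these, the smallest possible. The median enzyme was at 10.7, 11.7 and 23.5 FPKM in laboratory livers and at 47.8, 71.7 and 63.0 in wild livers, while the lowest enzyme, Ggps1, overlapped.

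Ratios between sterol genes of the same mouse are free of any scaling between mice. These pairs were picked after the values were seen and are a description. Dhcr7 stood at 0.0188, 0.0176 and 0.0324 of Sc5d, the preceding enzyme, in laboratory livers and at 0.388, 0.430 and 0.286 in wild livers. Lss stood at 0.0287 to 0.0327 of Fdps in laboratory and 0.0835 to 0.121 in wild livers. Relative to Ebp, Hsd17b7 was at 0.0121 to 0.0143 in laboratory and 0.0374 to 0.0809 in wild livers, and Cyp51 was at 0.0513 to 0.0978 and 0.270 to 0.389. Each of these ratios was higher in all wild mice than in all laboratory mice. Srebf2 was at 0.230 to 0.378 of Scap in laboratory livers and within 0.479 to 0.503 in all wild mice. The ratio of Insig1 to Insig2 overlapped, at 1.93, 2.58 and 5.44 in laboratory and 2.59, 1.91 and 3.95 in wild livers (two-sided exact permutation p = 0.7).

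**Figure D3:**
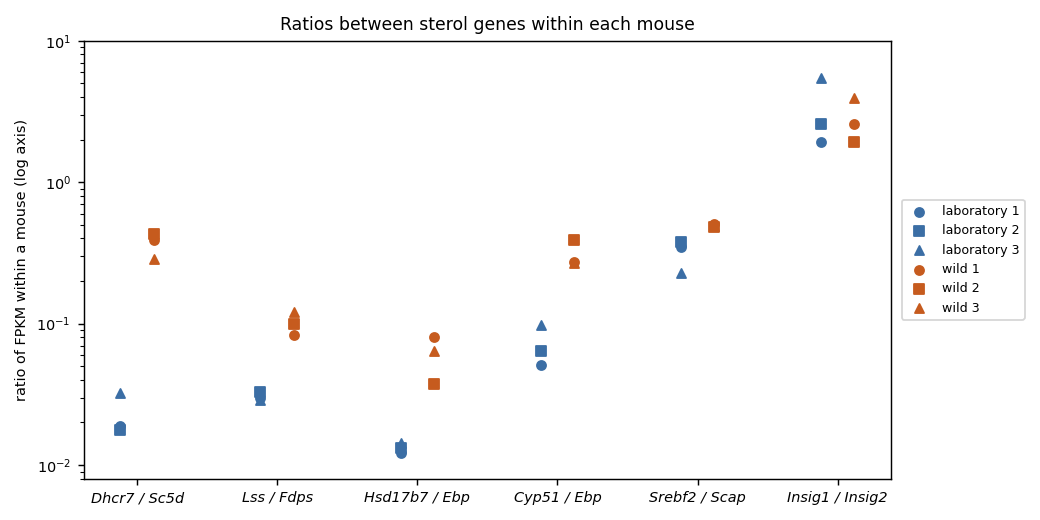
Ratio of FPKM between pairs of sterol genes within each mouse, on a log axis, with a symbol per mouse. The first 5 ratios are higher in every wild mouse than in every laboratory mouse, with the widest gap for Dhcr7 over Sc5d, and the ratio of Insig1 to Insig2 overlaps.

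The same order was seen in positions among all tested genes, which no scale factor of a mouse can change. In 14 of the 26 genes every wild mouse had the gene nearer the top than every laboratory mouse, against 27.3% of all tested genes. Hsd17b7 was at positions 7917 to 8233 in laboratory livers and 3593 to 5177 in wild livers, and Srebf2 was at 5072 to 5129 in the former and 2483 to 2953 in the latter. Ebp was at 440 to 483 in laboratory and 477 to 543 in wild livers. Ggps1 was at 8339 to 9294 in laboratory and 9851 to 10156 in wild livers.

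Sex differed along with origin, so the wild male was set beside the laboratory males. In zFPKM the wild male was above all 3 laboratory males for 16 of the 26 genes, against 15.0% of all tested genes. In the males alone, with the wild mouse assumed to vary like the laboratory mice, the median difference was 0.225 zFPKM for the 26 genes and -0.275 for all tested genes, none of the 26 was called by limma, and 3 had an unadjusted p under 0.05, all higher in the wild male. Over all 18619 tested genes, this fit called none as well, with 16.8% at an unadjusted p under 0.05. With sex as a covariate, which gave the same medians, 1 of the 26 was called, Dhcr7, against 1.34% of all tested genes called higher and 6.04% lower. In that limma fit 8 of the 26 had an unadjusted p under 0.05, 6 of them higher in wild livers. Of all tested genes 23.2% had such a p in either direction. Dhcr7 was 16.2-fold, Hsd17b7 8.54-fold and Srebf2 4.37-fold higher in FPKM in the wild male than in the mean laboratory male, while Acat2 stood at 1.06 times and Mylip at 0.778 times that mean. In the males alone the zFPKM differences of Acat2, Fdps, Sqle, Nsdhl and Mylip were negative, with those of Fdps, Sqle and Nsdhl, at -0.0669, -0.0456 and -0.0454, above the median of all tested genes and their FPKM in the wild male 1.63, 1.96 and 1.92 times the mean laboratory male. Both wild females were above the wild male in FPKM for 19 of the 26 genes, against 42.5% of all tested genes, and in zFPKM for 24 of the 26, against 83.1%. The second count is near the share of all genes.

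Among the laboratory mice, mouse 3 had the highest FPKM of 22 of the 26 genes, against 49.6% of all tested genes. The summed FPKM of the 19 enzymes was 470, 631 and 979 in laboratory mice 1 to 3 and 1339, 2053 and 1620 in wild mice 1 to 3. In this FPKM sum laboratory mouse 3 thus lay between the other laboratory mice and the wild mice. This order did not hold in zFPKM. There the mean of the 26 genes was 0.857, 0.926 and 0.816 in laboratory mice 1 to 3, and was higher in every wild mouse. Laboratory mouse 3 was thus the lowest of all mice on that scale. Without laboratory mouse 3 the count of sterol genes called was 10.

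The promoters of the sterol genes were searched for 4 short motifs in windows from 250 bases before to 50 after each RefSeq start on GRCm38.p6. Of the 26 genes, 21 had a window, 27 windows in all. The motifs were TCACNCCAC, the core of a sterol regulatory element bound by SREBP, CCAAT, bound by NF-Y, GGGCGG, the GC box, and CACGTG, an E-box, each on both strands, and none contains another. CCAAT was in 19 of the 21 genes (90.5%), beside 41.1% of the 27025 genes with a window and 41.9% of those tested. By window the shares were 70.4% and 37.4%. The GC box was in 19 of the 21 (90.5%), beside 60.1% of tested genes, and the E-box in 5 (23.8%), beside 10.9%. The sterol regulatory element core was in 1, Hmgcs1, which was not called, beside 1.47% of tested genes. A match is a stretch of letters and not a measured site. Stretches before the start are shown for Hmgcs1 because it alone held the core, and for Lss and Hsd17b7, which passed the test, beside Mvk and Ebp, which did not. They read 5′ to 3′ along the gene, and hold no exon of the GENCODE annotation. Capitals mark the sterol regulatory element core in Hmgcs1 and CCAAT, or its complement ATTGG, in the others.
Hmgcs1, chr13:119690196-119690240, plus strand: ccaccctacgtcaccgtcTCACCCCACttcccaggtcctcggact
Lss, chr10:76531485-76531564, plus strand: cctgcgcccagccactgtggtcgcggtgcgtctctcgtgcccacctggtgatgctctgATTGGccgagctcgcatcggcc
Hsd17b7, chr1:169969243-169969322, minus strand: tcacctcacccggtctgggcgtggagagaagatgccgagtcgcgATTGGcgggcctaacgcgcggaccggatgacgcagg
Mvk, chr5:114444169-114444248, plus strand: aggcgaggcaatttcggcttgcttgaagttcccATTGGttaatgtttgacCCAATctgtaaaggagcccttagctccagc
Ebp, chrX:8193533-8193612, minus strand: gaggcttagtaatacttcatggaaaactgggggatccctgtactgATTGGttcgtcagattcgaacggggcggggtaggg
The stretches of Lss, Hsd17b7 and Ebp each held 1 CCAAT match and that of Mvk 2, and the stretches were placed so as to hold one.

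The neighbouring genes of sterol biology were covered by 40 further genes in 5 lists, of which 7 were called, all of them higher in wild livers, with a median difference of 0.234 zFPKM. On the centred log2 scale, 21 of the 40 were called higher and 4 lower, against 18.6% and 28.7% of all tested genes. In the acetyl-CoA supply, 3 of 4 were called. Acly, which makes cytosolic acetyl-CoA from citrate, was at 8.02, 14.2 and 43.3 FPKM in laboratory and 100, 118 and 120 in wild livers (adjusted p = 5.91e-05, limma), and Acss2, which makes it from acetate, was at 18.6, 25.7 and 81.8 and at 115, 224 and 169 (adjusted p = 0.00174, limma). Acat1, the mitochondrial thiolase, was at 33.1 to 44.5 in laboratory and 123 to 141 in wild livers. In none of the 3 did the groups overlap. The call of Acat1 was lost when any mouse but wild mouse 1 was left out and that of Acss2 without laboratory mouse 1, wild mouse 2 or wild mouse 3, while that of Acly was lost in none of these fits.

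Of the 15 further genes of transport and storage, 2 were called. Vldlr, a lipoprotein receptor that healthy liver expresses little, was at 0.0732, 0.0244 and 0.128 FPKM in laboratory livers and 4.64, 4.12 and 6.20 in wild livers (1.95 ± 0.381 zFPKM, adjusted p = 1.21e-05, limma). Tmem97, a sterol-regulated membrane protein that binds NPC1, was at 17.1, 19.6 and 19.1 in laboratory and 85.3, 107 and 79.4 in wild livers (adjusted p = 0.00224, limma). Pdss2, a subunit of the enzyme that makes the tail of coenzyme Q, was the one gene called of 8 in the isoprenoid branch, at 0.406, 0.636 and 0.754 in laboratory and 9.25, 8.13 and 8.56 in wild livers (adjusted p = 6.69e-04, limma). Rnf139, a ubiquitin ligase of the endoplasmic reticulum, was the one called of the 7 genes that process or degrade the SREBP machinery, at 0.769 to 1.39 in laboratory and 7.11 to 8.12 in wild livers (adjusted p = 0.0283, limma). The call of Rnf139 was lost when any mouse but wild mouse 1 was left out and that of Tmem97 without wild mouse 2.

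The 6 genes of the sterol sensor LXR and of cholesterol efflux had no call by limma, 1 at an unadjusted p under 0.05 and a median difference of -0.031 zFPKM. The most abundant, Nr1h3, which encodes LXR alpha, was at 23.2, 29.2 and 30.3 FPKM in laboratory and 55.5, 46.0 and 54.8 in wild livers (adjusted p = 0.823, limma). The least abundant, the exporter Abcg1, was at 0.417 to 0.567 in laboratory and 0.190 to 1.45 in wild livers (adjusted p = 0.881, limma). On the centred log2 scale 2 of the 6 were called higher and 1 lower.

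**Figure D4:**
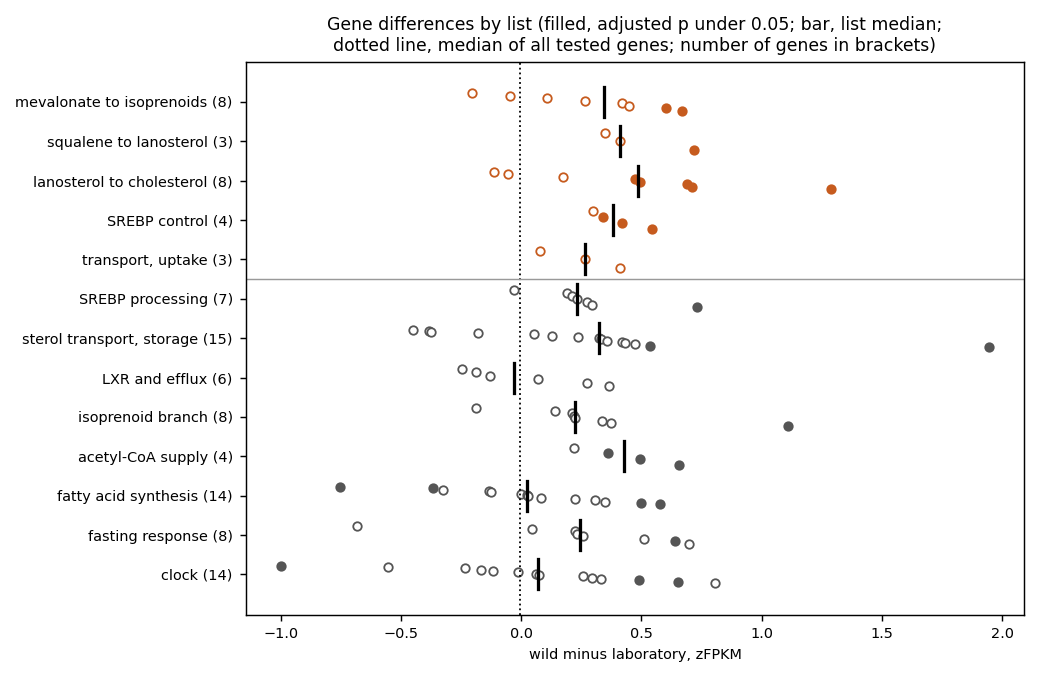
Wild minus laboratory difference in zFPKM of each gene, by list, with the sterol genes by step in orange above the line, further lists in grey, filled points for adjusted p under 0.05 in limma, a bar for each list's median and a dotted line at the median of all tested genes. The sterol steps have medians of 0.264 to 0.484, the LXR and efflux list -0.031 and the fatty acid list 0.026.

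Other processes of liver lipid metabolism, fasting and the clock were set beside sterol synthesis, and their part in the result was not tested. The 14 genes of fatty acid synthesis had a median difference of 0.026 zFPKM, with 2 called higher and 2 lower. The higher pair were the desaturases Fads1, at 34.7, 34.7 and 39.0 FPKM in laboratory and 165, 216 and 199 in wild livers, and Fads2, at 32.9, 40.4 and 45.8 and at 174, 185 and 176. Scd1, the most abundant of the list, overlapped at 588 to 1290 in laboratory and 976 to 1188 in wild livers. The 8 fasting genes tested had a median of 0.245 zFPKM. In FPKM 6 of them were higher in every wild mouse than in every laboratory mouse, as were 43.7% of all tested genes. On the centred log2 scale 3 were called higher, against 18.6% of all tested genes. On zFPKM Igfbp1 was called, at 5.44, 20.9 and 14.3 in laboratory and 74.1, 172 and 29.0 in wild livers. Of the 14 clock genes tested, 2 were called higher, Arntl and Bhlhe40, and Dbp was called lower. Arntl, a core clock activator, was at 0.841, 1.54 and 2.73 in laboratory and 11.7, 10.2 and 6.93 in wild livers. The clock output gene Dbp was at 9.42 to 12.1 in laboratory livers, 0.644 and 0.867 in wild mice 1 and 2 and 22.3 in wild mouse 3. The wild mice were thus not alike among themselves in this output gene.

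Of genes that differ between the sexes in mouse liver, 9 of 9 female-biased genes were called higher in wild livers, and of 8 male-biased genes tested 6 were called lower and Ugt2b38 higher. The female-biased genes summed to 2.54 to 5.05 FPKM in laboratory livers, 71.4 in wild mouse 1 and 7232 and 5706 in the wild females. The male-biased genes summed to 863 to 1273 FPKM in laboratory livers, 1116 in wild mouse 1 and 93.8 and 144 in the wild females. The wild male thus lay within the range of the laboratory males in this sum, but not in each gene. Cyp2d9, Cyp4a12b and C6 lay within that range. Hsd3b5 lay below it, at 4.21 FPKM against 60.3 to 104, as did Cyp4a12a and Elovl3, at 97.3 and 43.4 FPKM. Above it lay Slco1a1, at 135 against 32.4 to 38.5, and Ugt2b38, at 82.2 against 10.5 to 20.4. Hepatocyte markers, a check on the labelled tissue, summed to 26638 to 36782 FPKM in laboratory and 19710 to 21667 in wild livers, with Ttr and Apoa1 called lower and Tat, Cyp2e1 and Tdo2 called higher of 6 tested. Neither the 7 Kupffer cell nor the 6 sinusoidal endothelial markers had a call by limma, with 1 in each list at an unadjusted p under 0.05, and they summed to 12.8 to 121 and to 21.1 to 66.6 FPKM over all mice. Of the 7 stellate cell markers, 2 were called lower, Col1a1 and Col3a1. On the centred log2 scale these 2 and Des were called lower, while Lrat, Reln and Dcn were called higher. The latter were called on that scale and not on zFPKM, and were 3.93-fold, 3.52-fold and 3.17-fold higher in mean FPKM without overlap. Of the bile duct markers 1 of 6 was called lower, of the lymphocyte markers 1 of 9 and of the red cell markers 5 of 6. On the centred log2 scale these counts were 5, 4 and 4, and 1 sinusoidal endothelial marker, Stab2, was called lower. Of all tested genes 28.7% were called lower on that scale. Red cell markers summed to 1340 to 5135 FPKM in laboratory and 724 to 1581 in wild livers. The adipocyte genes Plin1 and Lep were at 0 in every mouse, and the acinar pancreas genes summed to at most 1.86 FPKM.

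Exons of 10 of the sterol genes overlap exons of another gene in the GENCODE annotation, and how the counting used strand is not given in the sources used here. The overlap is widest for Fdps, with 26.7% of its exon bases shared with Gm43738 on the same strand, and Tm7sf2 shares 12.1% with Vps51 on the same strand. For Cyp51, Lss and Idi1 the partner lies on the opposite strand, over 3.76%, 3.53% and 9.22% of the exon bases. How far the values of these genes are affected was not measured. Dhcr7, Pmvk, Hsd17b7, Msmo1, Srebf2, Insig1 and Insig2 share no exon bases with another gene.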

How the data were processed

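RNA was extracted from frozen liver of 6 mice and sequenced as stranded mRNA libraries with single reads. The authors aligned the reads with kalign to a repeat-masked GRCm38.p6 genome and calculated FPKM with the Tuxedo pipeline. The deposited FPKM are scaled to transcript length and library size. From these the authors computed a second deposited score, zFPKM, with the R package of that name, using a mode and SD fitted per mouse. No counts were used here, so the depth of each library is unknown, no counting interval is given, precision rests on 3 mice per group, and the count test of the study's methods was not repeated.

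Names listed once in every mouse were used, 24 with a failed estimate were left out and 47232 remained. Genes with zFPKM above -3 in at least 3 mice were tested, lower values being set to -3. Groups were taken from the labels and compared with limma 3.58.1 (lmFit, eBayes with trend, Benjamini-Hochberg) in R 4.3.3. The prior degrees of freedom came out infinite, so each variance was that of the trend. Single values were compared by two-sided exact permutation tests. The procedure was tested on data simulated from the mean and spread of each gene, with 200 of 18619 genes shifted by 1 zFPKM. Of the 200, 58 (29%) were called, and 1 of the 59 calls was false. A gene that did not pass may therefore still differ. The noise was drawn independently for each gene and mouse, so effects shared by the genes of a mouse were absent. The share of false calls in the real data was thus not measured. The shifted genes were taken from all tested genes, so 29% is not a rate for the sterol genes. Tables and motif searches used Python 3.11.15, pandas 2.3.3, numpy 2.4.6 and scipy 1.17.1. Promoter sequences came from RefSeq, and the deposited positions of all 26 genes match RefSeq on GRCm38.

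The 26 genes and all lists were chosen with earlier results of these data known. Named are all 26 genes and the called genes of the further sterol lists (if none, the most and least abundant). Of the fatty acid, fasting and clock lists at most the 2 most abundant and any gene called without overlap are named. Beyond this rule, Dbp, the male-biased genes and the called or absent marker genes were named after their values were seen. The female-biased genes are given only as a count and a sum. Alternatives were other floors, filters, scales and normalizations, no trend, sex as a covariate, males only, repeated names and each mouse left out. The centred log2 scale was added after seeing the data.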

Additional observations from a re-analysis of the deposited data

How the results depend on the processing

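Of the 26 sterol genes, 11 were called. The count was 7 with a filter at -3 in 1 mouse, 17 on the centred log2 scale, 21 with log2(FPKM + 0.1), 20 with log2(FPKM + 1), 1 without the variance trend, 1 with sex as a covariate, 0 in males only and 0 with no filter on low values, where limma tested 47232 genes and 13 of the 26 had an unadjusted p under 0.05. The share of all tested genes called in either direction was 14.4% in zFPKM and 6.18%, 47.4%, 46.1%, 44.3%, 4.27%, 7.38%, 0% and 0.0487% under these 8 settings in turn, and 39.1% with quantile normalization. The count of sterol genes ranged from 3 to 12 with each mouse left out, where 7.63% to 13.7% of all tested genes were called in either direction. The other settings, a floor of -5, a filter at -2, quantile normalization, a median zFPKM of 0 and repeated names, gave 8 to 14. Of all tested genes 10.5%, 15.9%, 39.1%, 28.3% and 14.1% were called under these settings in turn. Dhcr7 was called under 17 of 19 alternatives and was higher in wild mice under all 19. Of the 40 further sterol genes, 7 were called, and the count was 4, 25, 28, 28, 2, 1, 0 and 0 under the same 8 settings in the same order, 22 with quantile normalization and 3 to 8 with each mouse left out. In males only 3 of the 40 and with no filter 11 had an unadjusted p under 0.05. The median difference of the 26 genes, 0.412, was 1.16, 1.90 and 1.76 on the centred log2, log2(FPKM + 0.1) and log2(FPKM + 1) scales, 0.225 in males only and with sex as a covariate, and 0.344 to 0.492 with each mouse left out. The number of genes without overlap was 21 in FPKM, 16 in zFPKM or after division by each mouse's median, and 21 to 25 with each mouse left out. Of all tested genes 43.7% were higher in wild mice without overlap in FPKM and 14.1% in zFPKM. Shares for the other settings were not computed, and groups of fewer mice overlap less readily in any gene.

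The direction turned for genes that did not pass the test. With males only or sex as a covariate, where the median of all tested genes was -0.275, it was -0.378 for Acat2, -0.0669 for Fdps, -0.0456 for Sqle, -0.0454 for Nsdhl and -0.653 for Mylip. With log2(FPKM + 0.1) and log2(FPKM + 1) it was 0.684 and 0.679 for Hmgcs1, 0.110 and 0.0606 for Ggps1, 0.594 and 0.590 for Ebp and 0.466 and 0.462 for Sc5d. The centred log2 scale differs from log2(FPKM + 0.1) only by the median of each mouse. On it these genes were at -0.0576, -0.631, -0.147 and -0.276 in the same order. With each mouse left out it ranged from -0.167 (wild mouse 2) to 0.0626 (laboratory mouse 3) for Hmgcs1, from -0.0950 (wild mouse 2) to 0.00991 (wild mouse 1) for Ebp and from -0.219 (wild mouse 2) to 0.443 (wild mouse 1) for Mylip. Why the direction turned with males only, with sex as a covariate or with a mouse left out was not tested. None of the 11 called genes reversed under any of the 19 alternatives. The depth is unknown, and the trend gave the widest zFPKM errors to the genes of lowest FPKM, Ggps1 and Mylip, whereas on the centred log2 scale Mvd had the widest.

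No paired analysis was possible because the replicate numbers were given in accession order and pair no mice.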
